A study of Homo sapiens with 12 samples.

Results

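The genes described here are the named antisense RNAs of HepG2 cells, that is, the genes whose symbol is that of another gene followed by -AS and, mostly, a number, as in PROX1-AS1. They were chosen by symbol alone, and EPB41L4A-AS1 was left out. The rule found 282 of the 16389 genes in the count matrix. For 265 of them the gene of the same symbol without the suffix, called the sense gene here, was also in the matrix (263 distinct sense genes, since some have more than 1 antisense RNA).

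An antisense RNA is transcribed from the DNA strand opposite to that of a neighbouring gene. Many start within or close to the promoter of the sense gene and run away from it, others cross its exons, and most are spliced, polyadenylated and noncoding. Individual members are known to bring chromatin regulators to the locus, to pair with the sense transcript, to bind microRNAs or proteins, or to be made in passing by a promoter that fires in both directions, and for most of them no function is established. HNF4A-AS1, for example, lies within the gene of a master transcription factor of the liver, on the opposite strand.

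HepG2 cells, a widely used line from a human liver tumour, came from ATCC. LG cells were grown for 48 h in medium with 5.5 mM glucose and HG cells in medium with 20 mM glucose. LGV and HGV cells had the same media and then 1 mM valproic acid (VPA), a histone deacetylase inhibitor, for 12 h. Each of the 4 groups had 3 libraries of poly(A) RNA, and the study asked how high glucose and VPA change the transcriptome. The sources do not say whether the untreated cells were harvested before or after those 12 h, nor whether the 3 libraries came from separate cultures, so that p-values measure only the spread between these samples, which may be technical.

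Between 29798442 and 45572694 reads per library were counted on genes, and 3 reads, the fewest taken here as distinct from none, stood for 0.0713 to 0.112 CPM (read counts relative to the library total, scaled with TMM factors of 0.879 to 1.095), a limit that covers counting error only. The 8 hepatocyte markers looked for were present in every library, with albumin (ALB) between 18900 and 29400 CPM. Of the markers of other cell types, PTPRC, PECAM1 and KRT7 were not among the genes of the matrix, COL1A1 lay between 0.125 and 2.64 CPM and ACTA2 between 10.5 and 38.8 CPM, and their part in the results was not tested. In RNA from bulk culture, fewer cells of a kind and less RNA per cell cannot be told apart.

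Of the 282 antisense RNAs, 277 could be placed on GRCh37 with the GENCODE v44 gene models. In that annotation 262 were long noncoding RNAs, 7 pseudogenes and 7 protein coding, and 65 went under another name, 41 of them one that ends in -DT, for divergent transcript. The start of 139 lay within 1000 bases of the start of a gene on the other strand, head to head with it (called divergent here), 111 others shared exon bases with a gene on the other strand, and 27 did neither. All 258 pairs in which both the antisense RNA and the sense gene could be placed lay on opposite strands, 173 of them with shared exon bases.

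These shared bases bear on the counts. The libraries were made with a kit that keeps the strand, but whether the reads were counted by strand is not stated in the sources used here, and without strand, reads from overlapping exons of 2 genes cannot be told apart. For 211 of the 277 placed members some exon bases overlapped a gene on the other strand, at a median of 6.52% of the member's exon bases, and for 12 members over 50%. Among the genes of the matrix 45 lay wholly inside exons of the other strand in these models, MID1IP1-AS1 among them with a mean of 43.4 reads. The authors counted on other gene models, so whether strand was used was not tested.

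As a group the antisense RNAs were scarce. Over the 12 libraries the mean level of a member had a median of 1.62 CPM (quartiles 0.625 and 4.87), against 31.4 CPM for the sense genes and 13.6 CPM for all genes. Per kb of exon the median was 0.536 CPM for the members and 4.57 CPM for the sense genes. Together they took between 0.179% (an LGV library) and 0.223% (an HG library) of the reads of a library, or 0.111% to 0.161% without FAM211A-AS1. The median member stood at 1.22 to 1.62 CPM in the LG libraries and 1.10 to 1.48 CPM in LGV, and at 1.76 to 1.85 CPM in HG and 1.75 to 1.83 CPM in HGV, so that the libraries of the high-glucose groups lay above those of the low-glucose groups.

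Few members exceeded this low level by far. FAM211A-AS1, a host of small nucleolar RNAs that is named SNHG29 in GENCODE, had the highest level per kb of exon, 74.1 CPM per kb. NCBP2-AS2 followed at 34.6 CPM per kb and is annotated as protein coding. Below them came HOXD-AS1 (HAGLR in GENCODE, within the HOXD cluster) at 17.3 and FGD5-AS1 at 16.6 CPM per kb, and further down JHDM1D-AS1 at 9.45, PAXIP1-AS1 at 7.68 and CEBPZ-AS1, also annotated as protein coding, at 7.54 CPM per kb. HOXD-AS1 and FGD5-AS1 cannot be ordered by these means, whose distance is smaller than the range over the groups for each.

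Of these abundant members, NCBP2-AS2, FGD5-AS1 and PAXIP1-AS1 passed the test in none of the 4 comparisons. FGD5-AS1 stood at 107 ± 10.2 CPM in LG, 109 ± 7.77 in HG, 88.7 ± 8.11 in LGV and 96.4 ± 5.35 in HGV (mean ± SD, n = 3, as for all such values). FAM211A-AS1 stood at 784 ± 120 CPM in LG and 531 ± 106 in HGV, and its only call was a lower level in HGV than in LGV (log2 fold change -0.41 ± 0.15 SE, FDR 0.0397), with libraries of the groups overlapping. The FDR is the p-value of edgeR's quasi-likelihood test adjusted over all genes tested, and a gene was called where it was 0.05 or less. CEBPZ-AS1 rose with glucose, from 25.1 ± 4.56 CPM in LG to 40.5 ± 1.68 in HG (log2 fold change 0.71 ± 0.15, FDR 0.00217) and from 29.6 ± 4.64 in LGV to 46.5 ± 5.63 in HGV (0.63 ± 0.14, FDR 0.00136). JHDM1D-AS1, at the gene of a histone demethylase, was lower in HG than in LG by 0.45 ± 0.15 (FDR 0.0391) and higher in HGV than in HG by 0.41 ± 0.15 (FDR 0.037).

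The first question was how the antisense RNAs differed between high and low glucose. In HG against LG, 65 of the 266 members with enough reads to be tested were called, 56 of them higher and 9 lower in HG. Of all 15452 genes tested, 24.7% were called, close to the 24.4% of the members, with 12% higher and 12.7% lower. The direction of the members thus lay to the high side while their number did not exceed the background: the median log2 fold change was 0.34 over the members and 0.01 over all genes. Among the sense genes 33 were higher and 37 lower of 256 tested, with a median of -0.05. Long noncoding RNAs without these members lay between, with 226 higher and 74 lower of 1378 tested and a median of 0.24, as did all genes of like abundance (mean CPM between the quartiles of the members), with 619 higher and 229 lower of 3651 tested and a median of 0.21.

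The count depended on single libraries. It was 30 without the first LG library, 40 without the second, 38 without the first HG library, 40 without the second and 36 without the third, and 97 without the third LG library, with more members higher than lower each time.

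**Figure D1:**
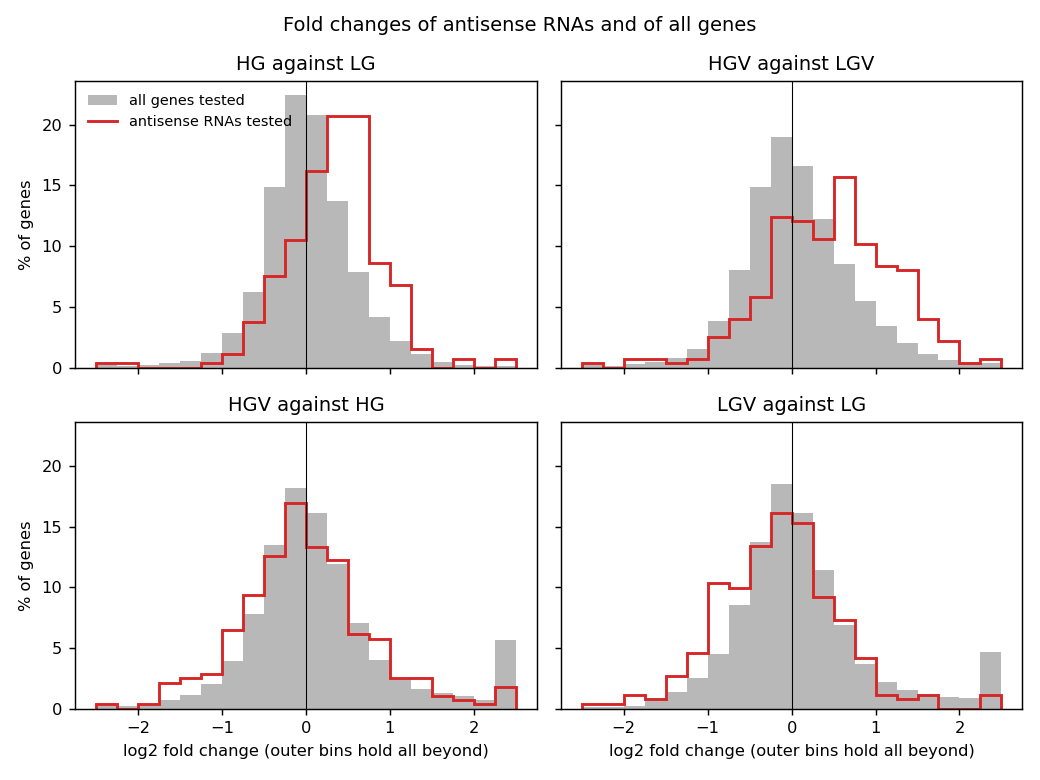
Share of genes (vertical axis, percent of those tested) by log2 fold change (horizontal axis, outer bins holding all values beyond) for all genes tested (grey) and the antisense RNAs tested (red line), in each of the 4 comparisons. In the glucose comparisons of the upper row the red line lies to the right of the grey bars (median 0.34 against 0.01, and 0.47 against 0.01), and in the VPA comparisons of the lower row it lies slightly to the left (-0.05 against 0.02, and -0.16 against -0.01).

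The antisense RNA at PROX1 (chr1:213991094-214161851, minus strand), a gene for a homeobox factor of liver and lymphatic development, rose with glucose. PROX1-AS1 had 2.06, 1.77 and 2.50 CPM in the LG libraries, 7.32, 7.99 and 6.47 in HG, 4.38, 4.51 and 3.18 in LGV and 16.7, 15.7 and 16.2 in HGV. The 4 groups did not overlap, and both high-glucose groups lay above both low-glucose groups. The log2 fold change was 1.80 ± 0.21 in HG against LG (FDR 1.09e-05) and 2.00 ± 0.17 in HGV against LGV (FDR 2.05e-07). The PROX1 transcript itself changed less, from 80.2 ± 7.24 CPM in LG to 106 ± 22.5 in HG (log2 fold change 0.42 ± 0.14, FDR 0.0334).

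SLC25A21-AS1 (chr14:37641093-37643016, plus strand) starts head to head with SLC25A21, the gene of a mitochondrial carrier of oxodicarboxylates, and shares 326 exon bases with it. It had 0.224, 0.0749 and 1.12 CPM in LG, 3.20, 2.15 and 3.28 in HG, 0.960, 0.292 and 0.294 in LGV and 2.39, 3.71 and 3.47 in HGV. Every high-glucose library lay above every low-glucose library, and the second LG library held 3 reads. The log2 fold change was 2.56 ± 0.48 in HG against LG (FDR 0.000929) and 2.61 ± 0.36 in HGV against LGV (FDR 3.22e-05), and the first was 4.38 without the third LG library. SLC25A21 was not called for glucose (1.90 ± 0.281 CPM in LG, 1.43 ± 0.280 in HG, log2 fold change -0.38 ± 0.26, FDR 0.297).

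MKLN1-AS (chr7:130994228-131013071, minus strand) lies at the gene of muskelin, a subunit of the CTLH ubiquitin ligase. It was among the 9 members lower in HG, with 11, 14.2 and 9.39 CPM in LG, 2.35, 2.69 and 2.32 in HG, 17.3, 21.0 and 20.3 in LGV and 6.68, 5.64 and 6.85 in HGV. The groups did not overlap. The level fell by 2.21 ± 0.21 on the log2 scale in HG against LG (FDR 8.21e-07) and by 1.63 ± 0.15 in HGV against LGV (FDR 5.4e-07). MKLN1 moved the same way, from 69.4 ± 20.7 CPM in LG to 33.6 ± 5.99 in HG, and fell by 1.03 ± 0.18 (FDR 0.000408). Their start sites lie 218216 bases apart, but some of their exon bases overlap, and reads of these can bear on both.

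Among the other members with the largest changes in HG against LG were RUSC1-AS1 (1.41 ± 0.415 CPM in LG, 3.45 ± 0.527 in HG, log2 fold change 1.29 ± 0.26, FDR 0.00148), which shares exon bases with RUSC1 and with FDPS, an enzyme of the mevalonate pathway, and NAPA-AS1 (0.420 ± 0.119 and 1.10 ± 0.239 CPM, 1.37 ± 0.34, FDR 0.00644). MLLT4-AS1, head to head with the gene of the junction protein afadin, stood at 1.92 ± 0.288 and 4.62 ± 0.894 CPM (1.27 ± 0.23, FDR 0.000652). DICER1-AS1, at the gene of the nuclease that makes microRNAs, rose by 1.24 ± 0.27 (FDR 0.0031) and PRKCQ-AS1 by 1.24 ± 0.33 (FDR 0.00999). All 5 were also called higher in HGV than in LGV except NAPA-AS1 (log2 fold change 0.64 ± 0.39, FDR 0.204). MTUS2-AS1, picked out after its values were seen, was lower with high glucose but near the limit of detection: 8 reads over the 3 HG libraries against 57 over LG, a 6.77-fold difference with a 95% counting interval of 3.21 to 16.4, and 3 reads over HGV against 92 over LGV, a ratio of 32.8 (10.9 to 162).

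The bases from 250 before to 50 after the start of these 3 leading members are shown so that a reader can see what lies at the promoters of antisense RNAs that moved with glucose. They are read 5′ to 3′ along the strand of the antisense RNA, with GRCh37 sequence and GENCODE starts. Capitals mark matches on either strand to the E-box CACGTG (the core that carbohydrate response factors bind), the GC box GGGCGG, the CCAAT box spelled CCAAT, the TATA box spelled TATAAA and the letters GTTAAT.
PROX1-AS1 promoter (GRCh37 chr1:214161802-214162101, minus strand): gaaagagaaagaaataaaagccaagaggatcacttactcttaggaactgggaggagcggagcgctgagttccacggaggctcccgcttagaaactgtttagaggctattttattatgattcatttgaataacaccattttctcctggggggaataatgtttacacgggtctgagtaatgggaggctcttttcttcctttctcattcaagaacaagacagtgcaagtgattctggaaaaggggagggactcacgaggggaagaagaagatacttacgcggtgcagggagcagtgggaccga
SLC25A21-AS1 promoter (GRCh37 chr14:37640843-37641142, plus strand): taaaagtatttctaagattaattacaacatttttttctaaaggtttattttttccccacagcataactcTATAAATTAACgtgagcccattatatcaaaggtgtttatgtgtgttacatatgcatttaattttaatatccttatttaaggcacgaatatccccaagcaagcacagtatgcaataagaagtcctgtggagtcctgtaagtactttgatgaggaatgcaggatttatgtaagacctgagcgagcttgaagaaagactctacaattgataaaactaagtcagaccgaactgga
MKLN1-AS promoter (GRCh37 chr7:131013022-131013321, minus strand): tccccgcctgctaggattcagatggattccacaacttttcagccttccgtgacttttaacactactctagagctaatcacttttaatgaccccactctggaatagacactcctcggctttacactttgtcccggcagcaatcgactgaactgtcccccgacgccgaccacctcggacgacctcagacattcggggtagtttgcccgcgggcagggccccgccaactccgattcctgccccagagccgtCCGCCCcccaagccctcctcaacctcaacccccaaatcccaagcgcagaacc
The window of SLC25A21-AS1 held a TATAAA and a GTTAAT match, which overlap there, and that of MKLN1-AS 1 GC box. No letters of the 5 motifs were found in the window of PROX1-AS1. Of 16082 promoters of the matrix 8.73% held the E-box, 57% the GC box, 35.6% CCAAT, 8.34% TATAAA and 5.07% GTTAAT. Of the 277 promoters of members 8.3%, 59.6%, 28.9%, 8.3% and 2.89% did, and of the 55 placed members called higher in HG than in LG 9.09% held the E-box and 72.7% the GC box.

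The same question was then asked under VPA. In HGV against LGV, 113 of 274 members tested were called, 94 higher and 19 lower in HGV, beside 40.7% of all 16208 genes tested (21.2% higher, 19.5% lower) and 41.2% of the members. The median log2 fold change was 0.47 over the members and 0.01 over all genes. It was -0.08 over the sense genes, of which 46 were higher and 76 lower of 263, 0.27 over other long noncoding RNAs (351 higher, 133 lower of 1420) and 0.23 over genes of like abundance (1081 higher, 404 lower of 3950). Without the third LGV library the count was 71, of which 58 were higher.

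The comparisons of glucose without and with VPA share no library. Of 258 members tested in both, 55 were called higher in HG and 88 higher in HGV, and 39 were higher in both, which is 70.9% of the first list and 44.3% of the second. Lower in both were 5, of 9 and 18 members (55.6% and 27.8%). No member was called in opposite directions. Over all genes the shares were 73.6% and 42.9% for those higher in both, and 77.4% and 48.8% for those lower in both.

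**Figure D2:**
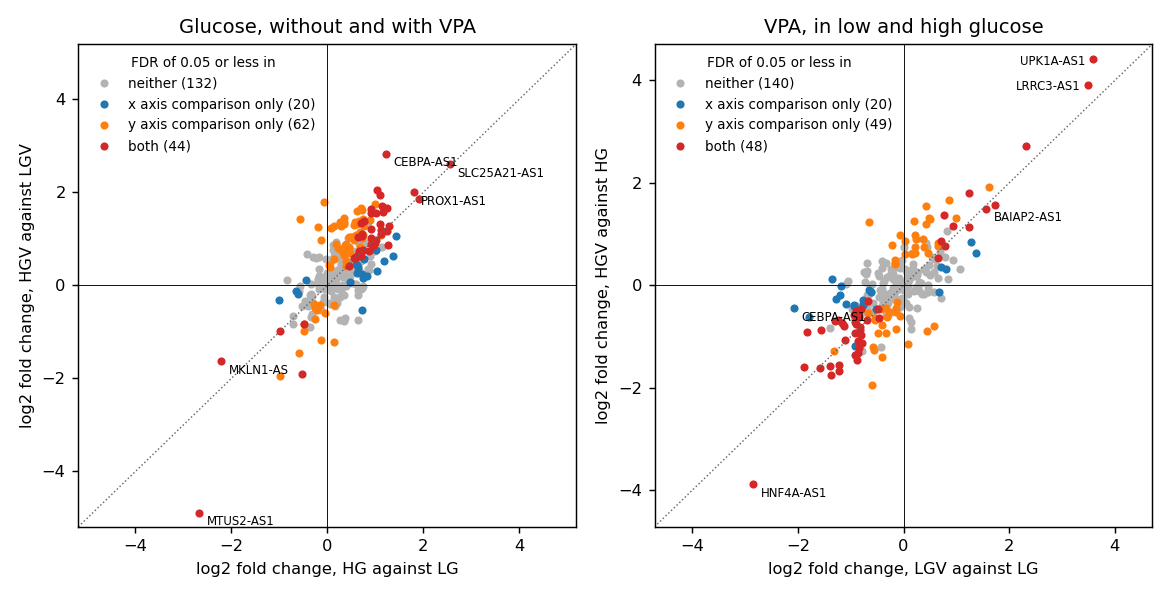
Log2 fold change of each antisense RNA in 2 comparisons that share no library, coloured by where the FDR was 0.05 or less; the dotted line marks equal change. Left, glucose without VPA (horizontal) and with VPA (vertical), where 44 members were called in both; right, VPA in low glucose (horizontal) and in high glucose (vertical), where 48 were. The points at the far ends (MTUS2-AS1, UPK1A-AS1 and LRRC3-AS1) rest on few reads in 1 of the groups compared, and their fitted fold changes depend on the prior count of the fit.

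CEBPA-AS1 (chr19:33793763-33795960, plus strand) starts 323 bases from CEBPA, the gene of a transcription factor of hepatocytes and adipocytes, and runs the other way. It had 0.524, 0.175 and 1.20 CPM in LG, 1.58, 1.5 and 1.37 in HG, 0.150, 0.195 and 0.107 in LGV and 0.920, 1.17 and 1.18 in HGV. The LG libraries were far apart, those of the other groups close together, and the high-glucose libraries lay above the low-glucose ones at either VPA setting. Among the named members it had the largest increase in HGV against LGV (log2 fold change 2.83 ± 0.41, FDR 4.75e-05), and it was also higher in HG than in LG (1.23 ± 0.42, FDR 0.0367). Its LGV libraries lay near the limit of detection. It had enough reads for the test of HGV against LGV only through the HGV libraries, so that FDR is no separate support. CEBPA was higher in HGV than in LGV as well (2.97 ± 0.740 against 1.83 ± 0.207 CPM, 0.68 ± 0.24, FDR 0.0316) and was not called in HG against LG (0.08 ± 0.24, FDR 0.834).

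ATP6V0E2-AS1, at the gene of a subunit of the vacuolar proton pump, went from 0.837 ± 0.265 CPM in LGV to 3.54 ± 0.646 in HGV (2.06 ± 0.27, FDR 1.85e-05). LIFR-AS1, at the receptor of leukemia inhibitory factor, went from 0.261 ± 0.161 to 1.04 ± 0.224 CPM (1.94 ± 0.42, FDR 0.00152), and KLHL7-AS1, head to head with an adaptor of a cullin ubiquitin ligase, from 0.397 ± 0.189 to 1.46 ± 0.445 CPM (1.85 ± 0.38, FDR 0.000921). LIFR-AS1 had enough reads for this test only through the HGV libraries, so its FDR is no separate support. ATP6V0E2-AS1, LIFR-AS1 and KLHL7-AS1 were also called higher in HG than in LG. In the other direction, HM13-AS1, of which 49.5% of the exon bases lie opposite exons of the signal peptide peptidase gene HM13, fell from 1.03 ± 0.296 to 0.274 ± 0.0756 CPM, by 1.95 ± 0.39 on the log2 scale (FDR 0.000801). HM13 fell as well, from 471 ± 27.9 to 260 ± 16.9 CPM (log2 fold change -0.88 ± 0.13, FDR 4.12e-05), and reads of the shared exon bases can bear on both.

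The next question was what VPA did in high glucose. In HGV against HG, 104 of 278 members tested were called, or 37.4%, beside 46.1% of all 16188 genes tested. Of the members 44 were higher and 60 lower in HGV, and of all genes 25.8% were higher and 20.2% lower. The median log2 fold change was -0.05 over the members and 0.02 over all genes. With library size in place of TMM factors the split of the members turned to 53 higher and 41 lower of 94 called, and the median over all genes moved to 0.15 and that of the members to 0.07, so that the members lay below all genes under both scalings.

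The members were set beside genes of like abundance. Of 3951 genes with a mean CPM between the quartiles of the members, 1319 were called higher and 445 lower in HGV than in HG (median log2 fold change 0.23). Of the 140 members in that band 19 were higher and 28 lower (median -0.07). Other long noncoding RNAs had 224 higher and 239 lower of 1448 (median -0.03), and the sense genes 49 higher and 86 lower of 262 (median -0.14). These lists were compared by their counts and medians only.

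In low glucose VPA lowered more members than it raised. In LGV against LG, 68 of 261 members tested were called, or 26.1%, beside 41.6% of all 15944 genes tested (21.7% higher, 19.9% lower). Of the members 17 were higher and 51 lower, with a median log2 fold change of -0.16, against -0.01 over all genes. With library size in place of TMM factors 26 were higher and 30 lower of 56 called, with a median of -0.00 against 0.16 over all genes. Without the third LGV library 44 members were called, 13 higher and 31 lower. Among genes of like abundance 1131 were higher and 360 lower of 3951, among the sense genes 45 and 67 of 261, and among other long noncoding RNAs 125 and 185 of 1361.

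These VPA comparisons share no library either. Of 257 members tested in both, 59 were called lower in HGV than in HG and 51 lower in LGV than in LG, and 36 were lower in both, which is 61% and 70.6% of the lists. Higher in both were 12, of 38 and 17 members (31.6% and 70.6%), and none was called in opposite directions. Over all genes 71.8% of those lower and 68.7% of those higher in HGV than in HG were called the same way in low glucose.

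**Figure D3:**
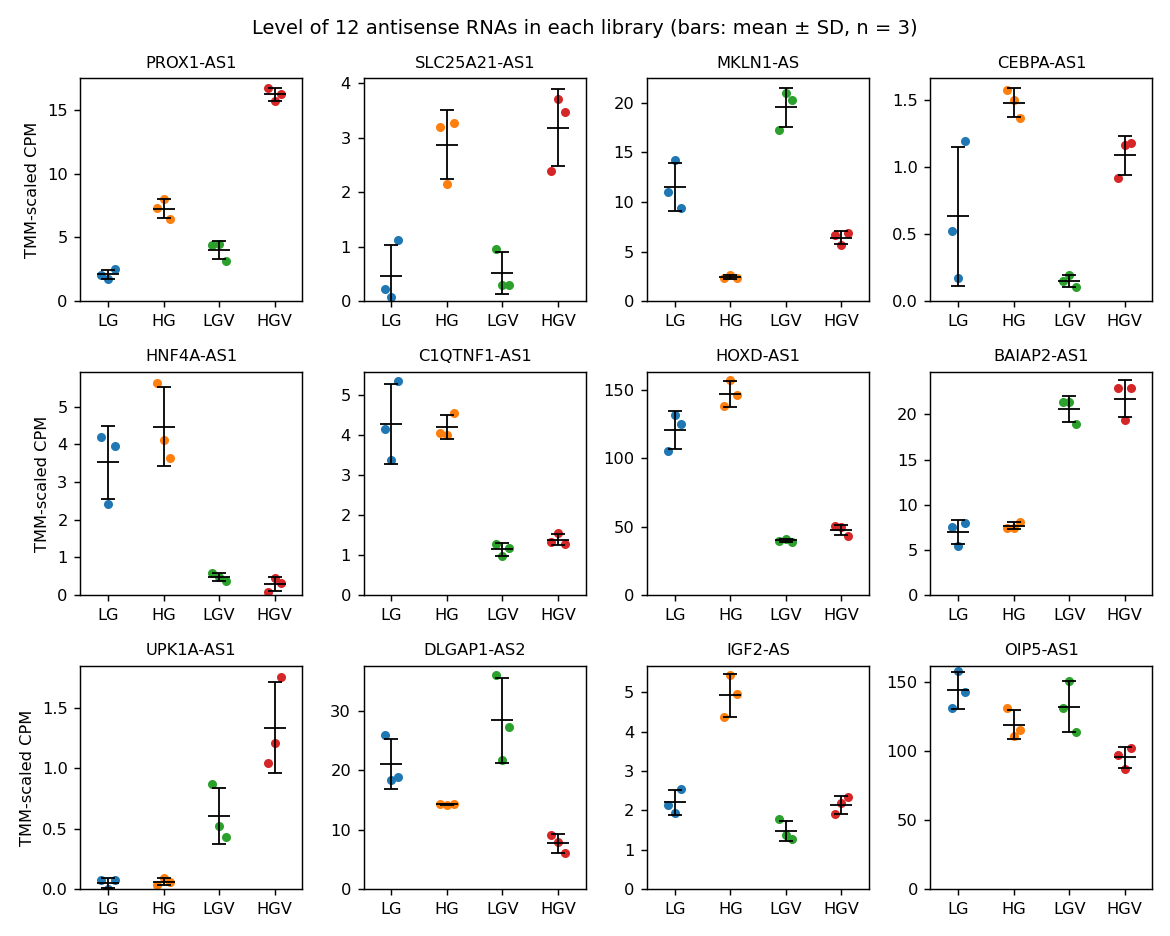
Level (TMM-scaled CPM, linear axis that differs between panels) of 12 antisense RNAs in each of the 12 libraries, as points by group, with the mean ± SD of the 3 libraries as bars. PROX1-AS1 and SLC25A21-AS1 stand higher and MKLN1-AS lower in the high-glucose groups, HNF4A-AS1, C1QTNF1-AS1 and HOXD-AS1 stand lower in the VPA groups, and BAIAP2-AS1 and UPK1A-AS1 stand higher in them.

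HNF4A-AS1 (chr20:43001386-43024346, minus strand) lies within the span of the gene of the nuclear receptor HNF4A, on the opposite strand, and shares no exon bases with it. HNF4A sets much of the hepatocyte programme. HNF4A-AS1 had 4.19, 2.42 and 3.96 CPM in LG and 5.64, 4.13 and 3.64 in HG, against 0.600, 0.487 and 0.374 in LGV and 0.0920, 0.452 and 0.323 in HGV. Every VPA library lay below every library without VPA, and the first HGV library held 3 reads. The level fell by 3.88 ± 0.36 on the log2 scale in high glucose (FDR 2.75e-06) and by 2.84 ± 0.31 in low glucose (FDR 6.07e-06). HNF4A fell by less, by 0.46 ± 0.09 (404 ± 4.44 to 293 ± 7.82 CPM, FDR 0.00141) and by 0.73 ± 0.13 (414 ± 45.8 to 247 ± 16.9 CPM, FDR 0.000299).

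The HOX clusters encode the homeobox factors of body patterning, and 2 members came from them. HOXD-AS1 had 105, 132 and 125 CPM in LG, 138, 157 and 146 in HG, 39.9, 41.0 and 39.1 in LGV and 50.3, 49.5 and 43.3 in HGV, so that all VPA libraries lay far below all others. It fell by 1.62 ± 0.11 in HGV against HG (FDR 1.72e-07) and by 1.58 ± 0.12 in LGV against LG (FDR 2.42e-07). HOXA-AS2 fell by 0.96 ± 0.17 (8.65 ± 0.267 to 4.46 ± 0.903 CPM, FDR 0.000511) and by 0.80 ± 0.22 (5.75 ± 1.37 to 3.26 ± 0.341 CPM, FDR 0.0101), a call that was lost in low glucose when library size replaced the TMM factors. HOXA-AS2 was also higher in HG than in LG (0.61 ± 0.20, FDR 0.0297), and HOXD-AS1 was not called there (0.31 ± 0.13, FDR 0.0843).

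Other members that fell with VPA in both media were C1QTNF1-AS1, at the gene of a secreted C1q-like protein (4.29 ± 1.00 CPM in LG, 1.15 ± 0.160 in LGV, 4.21 ± 0.308 in HG, 1.39 ± 0.139 in HGV), and IQCH-AS1 (6.54 ± 0.167, 2.48 ± 0.423, 7.12 ± 0.862 and 2.13 ± 0.236 CPM in the same order). C1QTNF1-AS1 fell by 1.89 ± 0.26 in low glucose (FDR 4.11e-05) and by 1.6 ± 0.19 in high glucose (FDR 2.14e-05), and its sense gene C1QTNF1 was called in neither (log2 fold changes 0.60 ± 0.25, FDR 0.0677, and 0.38 ± 0.21, FDR 0.163). IQCH-AS1 fell by 1.38 ± 0.20 (FDR 7.97e-05) and by 1.74 ± 0.17 (FDR 5.66e-06). KANSL1-AS1, at a gene of a histone acetyltransferase complex, fell by 1.56 ± 0.34 in low glucose (FDR 0.00179) and by 0.88 ± 0.28 in high glucose (FDR 0.0212). KANSL1 itself fell by 0.79 ± 0.10 in high glucose (FDR 4.46e-05) and was not called in low glucose (-0.32 ± 0.13, FDR 0.0636). PPP1R26-AS1 fell by 1.94 ± 0.23 in high glucose (3.44 ± 0.418 to 0.903 ± 0.206 CPM, FDR 2.55e-05) and stood at 3.13 ± 0.449 and 2.04 ± 0.502 CPM in low glucose (log2 fold change -0.60 ± 0.25, FDR 0.0683). RASAL2-AS1, at the gene of a Ras GTPase activator, fell by 1.79 ± 0.39 in low glucose (FDR 0.00204) and was not called in high glucose (-0.61 ± 0.27, FDR 0.0816).

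Members that rose with VPA included BAIAP2-AS1 (chr17:79002930-79008681, minus strand), which starts 241 bases from BAIAP2, the gene of an adaptor between small GTPases and actin. It had 7.52, 5.46 and 7.99 CPM in LG, 7.45, 7.45 and 8.12 in HG, 21.4, 21.4 and 18.9 in LGV and 22.9, 19.4 and 22.9 in HGV, with no overlap between libraries with and without VPA. The log2 fold change was 1.57 ± 0.17 in low glucose (FDR 5.78e-06) and 1.5 ± 0.13 in high glucose (FDR 1.63e-06). BAIAP2 was called in neither (log2 fold changes -0.29 ± 0.14, FDR 0.122, and 0.00 ± 0.12, FDR 0.992).

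HLA-F-AS1, at a gene of a nonclassical class I molecule of antigen presentation, rose from 0.431 ± 0.146 to 1.45 ± 0.265 CPM in low glucose (1.73 ± 0.34, FDR 0.000816) and from 0.706 ± 0.0990 to 2.12 ± 0.736 CPM in high glucose (1.57 ± 0.31, FDR 0.00115). Its sense gene HLA-F, with which it shares exon bases, also rose, by 0.93 ± 0.20 (FDR 0.00208) and by 0.62 ± 0.14 (FDR 0.00367). SPATA3-AS1 rose from 0.346 ± 0.0979 to 1.32 ± 0.123 CPM in high glucose (1.92 ± 0.30, FDR 0.00022) and was not called in low glucose (1.62 ± 0.65, FDR 0.059). FOXD2-AS1, at a forkhead gene, rose by 0.71 ± 0.21 (FDR 0.0157) and by 0.87 ± 0.15 (FDR 0.00049).

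Some members were close to absent without VPA. CCDC147-AS1 (CFAP58-DT in GENCODE) had 0 reads in all 3 LG libraries and 1 read over the 3 HG libraries, against 0.600, 0.422 and 0.240 CPM in LGV and 1.29, 1.71 and 1.26 in HGV. That is at least 14.6-fold higher in LGV than in LG, with 3 reads over the group as the limit, and in high glucose a ratio of 145 (157 reads against 1) with a 95% counting interval of 25.7 to 5780. UPK1A-AS1, at the gene of a urothelial membrane protein, had 0.0748, 0 and 0.0766 CPM in LG, 0.0317, 0.0897 and 0.0560 in HG, 0.870, 0.520 and 0.427 in LGV and 1.04, 1.21 and 1.76 in HGV. From its reads it was 22.4-fold higher with VPA in high glucose (10.0 to 62.0) and 12.7-fold in low glucose (5.17 to 40.6). LRRC3-AS1, head to head with a gene of a leucine-rich repeat protein, was 15.6-fold (7.71 to 37) and 11.5-fold higher (5.31 to 29.5). These intervals cover counting error only, and the tests gave FDRs in high glucose of 2.03e-06, 7.51e-06 and 1.34e-05. In that comparison these members had enough reads to be tested only through the HGV libraries, so the FDRs are no separate support.

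The bases around the starts of HNF4A-AS1 and BAIAP2-AS1 are shown because these members moved with VPA in both media, the first down and the last up. Strand, build and capitals are as above.
HNF4A-AS1 promoter (GRCh37 chr20:43024297-43024596, minus strand): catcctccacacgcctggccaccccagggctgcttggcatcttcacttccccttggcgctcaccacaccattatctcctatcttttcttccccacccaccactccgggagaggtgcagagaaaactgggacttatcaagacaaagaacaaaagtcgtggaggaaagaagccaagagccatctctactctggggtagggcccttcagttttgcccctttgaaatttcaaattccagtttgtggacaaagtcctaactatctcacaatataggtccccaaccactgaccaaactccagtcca
BAIAP2-AS1 promoter (GRCh37 chr17:79008632-79008931, minus strand): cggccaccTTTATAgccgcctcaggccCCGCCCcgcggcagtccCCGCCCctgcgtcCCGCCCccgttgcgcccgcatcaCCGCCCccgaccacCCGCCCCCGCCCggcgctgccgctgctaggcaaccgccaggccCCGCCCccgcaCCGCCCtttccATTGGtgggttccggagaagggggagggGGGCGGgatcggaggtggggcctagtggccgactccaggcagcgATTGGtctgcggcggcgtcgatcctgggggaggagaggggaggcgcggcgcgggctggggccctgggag
The windows differed in composition, with 50.7% and 77.3% G or C. No letters of the 5 motifs lay in the window of HNF4A-AS1, and that of BAIAP2-AS1 held 9 GC boxes, 2 CCAAT and 1 TATAAA. Over all promoters of the matrix the median was 61.7% G or C, and over the members 65%. Of the members placed, 67.4% of the 43 called higher and 60% of the 60 called lower in HGV against HG held a GC box, near the 59.6% of all members.

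Whether VPA acted differently in the 2 media was tested as an interaction term in a fit of all 12 libraries. No member of 282 was called, while 0.0427% of all 16389 genes were (7 genes, 0.0244% upward and 0.0183% downward). An unadjusted p of 0.05 or less was found for 28 of the 282 members and for 1852 of all 16389 genes. The Wald test of DESeq2 called 4 members (DLGAP1-AS2, NR2F1-AS1, RAB11B-AS1 and PPP1R26-AS1). Of the comparisons above, a call in the 1 medium and none in the other is therefore not shown to be a difference between media.

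The smallest p in the interaction belonged to DLGAP1-AS2, which lies near the gene of a postsynaptic scaffold protein. It had 26.0, 18.3 and 18.9 CPM in LG, 14.3, 14.2 and 14.4 in HG, 36.1, 21.8 and 27.4 in LGV and 9.14, 7.97 and 6.03 in HGV, so that HGV lay below all other groups. The VPA effect in high glucose was lower than that in low glucose by 1.33 ± 0.26 on the log2 scale (FDR 0.0627): the log2 fold change was -0.89 ± 0.16 in HGV against HG (FDR 0.000518) and 0.45 ± 0.18 in LGV against LG (FDR 0.0656). NR2F1-AS1, at an orphan nuclear receptor gene, had 3.93, 3.52 and 3.78 CPM in LG, 6.88, 5.47 and 5.96 in HG, 4.80, 3.57 and 3.39 in LGV and 2.82, 2.81 and 2.68 in HGV (interaction -1.21 ± 0.27, FDR 0.0728). RAB11B-AS1, at the gene of a small GTPase of recycling endosomes, had 3.37, 3.52 and 3.52 CPM in LG, 3.01, 3.89 and 3.92 in HG, 1.44, 1.56 and 1.52 in LGV and 2.85, 4.35 and 3.5 in HGV, so that LGV stood apart (interaction 1.19 ± 0.29, FDR 0.102).

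The members were then read against their sense genes. In HGV against HG both genes were tested in 261 pairs and both were called in 51. Of these 51 pairs 37 moved the same way, 8 up and 29 down, and 14 moved opposite ways, 9 with the antisense RNA higher and 5 with it lower. In 41 pairs only the antisense RNA was called, in 84 only the sense gene and in 85 neither. In LGV against LG both genes were called in 33 of 246 pairs, 28 of them the same way. In the pairs without shared exon bases, both were called in 17 of 84 pairs (12 the same way) and in 12 of 78 (10 the same way). Taken singly, 37.4% of members and 51.5% of sense genes were called in HGV against HG, and 26.1% and 42.9% in LGV against LG. Most of those called were lower, and whether pairs moved together more often than these separate shares give was not tested.

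The pairs were counted in the same way for glucose. In HG against LG both genes were called in 19 of 248 pairs, 15 of them the same way (13 up) and 4 with the antisense RNA higher and the sense gene lower. In HGV against LGV both were called in 51 of 258 pairs, of which 28 moved the same way, 22 had the antisense RNA higher and the sense gene lower, and 1 had the reverse. Without shared exon bases the last count was 13 of 84 pairs, 6 the same way and 7 with the antisense RNA higher. Taken singly, 24.4% of members and 27.3% of sense genes were called in HG against LG, and 41.2% and 46.4% in HGV against LGV. Of those called in HGV against LGV, 94 of 113 members were higher and 76 of 122 sense genes lower. Whether the pairs exceed what these separate tendencies give was not tested.

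**Figure D4:**
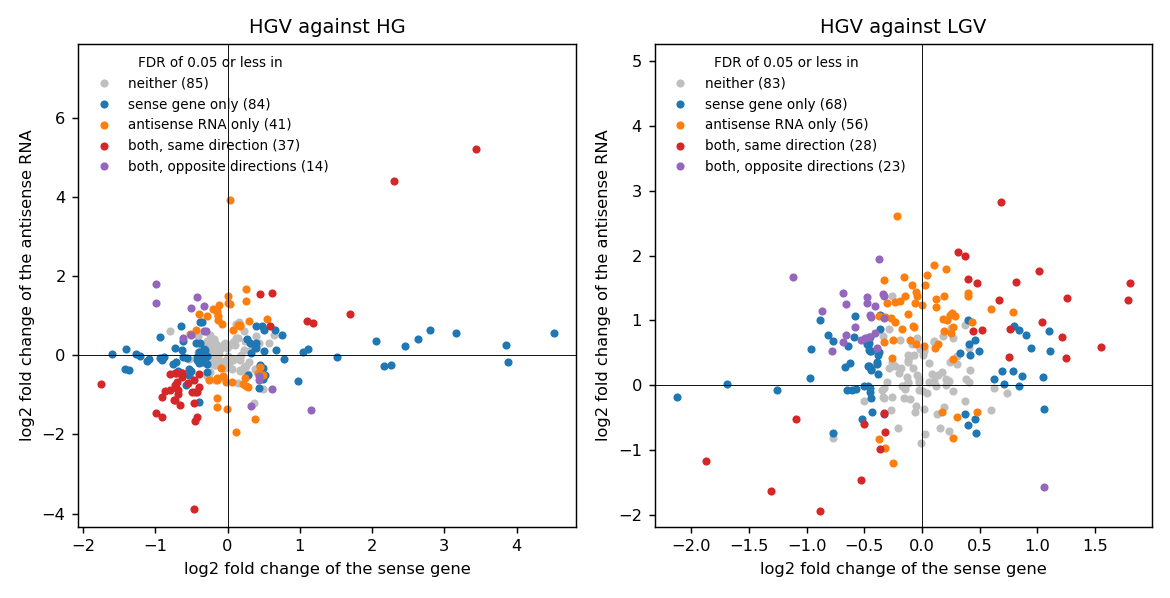
Log2 fold change of the sense gene (horizontal axis) and of its antisense RNA (vertical axis) for each pair tested, with colours for which of the genes had an FDR of 0.05 or less. In HGV against HG (left) 37 pairs in which both were called lie in the quadrants of equal sign and 14 in those of opposite sign, and in HGV against LGV (right) 28 and 23.

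Among pairs with opposite changes in HGV against HG, H1FX-AS1 fell by 1.39 ± 0.29 (1.19 ± 0.244 to 0.451 ± 0.0394 CPM, FDR 0.0018) while H1FX, a linker histone gene, rose by 1.16 ± 0.14 (91.0 ± 16.7 to 203 ± 22.6 CPM, FDR 2.76e-05). They share 345 exon bases. DLG5-AS1 rose by 1.81 ± 0.28 (0.563 ± 0.140 to 1.98 ± 0.357 CPM, FDR 0.000174) while DLG5, the gene of a scaffold protein of cell polarity, fell by 0.99 ± 0.14 (105 ± 8.23 to 52.7 ± 9.62 CPM, FDR 7.23e-05), and the same opposite changes passed the test in low glucose (1.23 ± 0.28, FDR 0.00241, and -0.98 ± 0.12, FDR 1.86e-05). This pair shares no exon bases, and the starts lie 617 bases apart. JMJD1C-AS1 rose by 1.31 ± 0.39 (FDR 0.0158) while JMJD1C, of the Jumonji family of histone demethylases, fell by 0.99 ± 0.25 (FDR 0.00558). ATE1-AS1 (1.19 ± 0.42, FDR 0.0353) and TMEM44-AS1 (0.50 ± 0.17, FDR 0.03) rose while ATE1 and TMEM44 fell, by 0.50 ± 0.11 (FDR 0.00289) and 0.51 ± 0.12 (FDR 0.00429). NAPA-AS1 fell by 0.85 ± 0.32 (FDR 0.0444) while NAPA, a cofactor of membrane fusion, rose by 0.62 ± 0.11 (FDR 0.000422). NAPA-AS1 and JMJD1C-AS1 lost their call with the Wald test of DESeq2, NAPA-AS1 also with library size in place of TMM factors, and TMEM44-AS1 in a fit of all 12 libraries.

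Among pairs that moved together in HGV against HG, the largest changes were in genes near absence in HG. LOXL1, the gene of an enzyme that crosslinks elastin, rose from 0.120 ± 0.0522 to 1.33 ± 0.107 CPM (log2 fold change 3.44 ± 0.37, FDR 9.71e-06), and LOXL1-AS1 from 2 reads over the group to 96, a ratio of 44.5 (counting interval 12.0 to 373). UPK1A rose with UPK1A-AS1 (log2 fold change 2.3 ± 0.49, FDR 0.00207), and LMCD1, the gene of a LIM domain protein, by 1.69 ± 0.16 (FDR 3.99e-06) with LMCD1-AS1 (1.05 ± 0.37, FDR 0.0369). LOXL1, with at most 6 reads in an HG library, and UPK1A had enough reads for this test only through the HGV libraries. The FDRs of LOXL1 and UPK1A are therefore no separate support. Downward, NFYC-AS1 fell by 1.46 ± 0.27 (FDR 0.000771) and NFYC, a subunit of the CCAAT-binding factor NF-Y, by 0.99 ± 0.10 (FDR 6.28e-06). ACVR2B-AS1 fell by 1.06 ± 0.15 (FDR 9.87e-05) and ACVR2B, an activin receptor gene, by 0.90 ± 0.16 (FDR 0.000596), with starts 930 bases apart and no shared exon bases.

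The ratio of each antisense RNA to its sense gene gives the same pairs within each library, as the log2 of the 2 CPM values after adding 0.5 to both. For PROX1-AS1 over PROX1 it was -4.96 ± 0.12 in LG, -3.77 ± 0.31 in HG, -3.99 ± 0.22 in LGV and -2.46 ± 0.26 in HGV, and only HG and LGV lay close together. For DLG5-AS1 over DLG5 it rose with VPA from -6.75 ± 0.10 to -4.91 ± 0.16 in low glucose and from -6.64 ± 0.21 to -4.42 ± 0.44 in high glucose. For HNF4A-AS1 over HNF4A it went from -6.71 ± 0.23 to -7.97 ± 0.07 and from -6.37 ± 0.28 to -8.57 ± 0.32. For FGD5-AS1 it was positive throughout, at 7.67 ± 0.07 in LG and 6.42 ± 0.15 in LGV, with FGD5 at 0.0251 ± 0.0250 CPM in LG, where the added 0.5 sets the ratio, and at 0.541 ± 0.0259 CPM in LGV.

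The members were also counted by where they start, with no test between the classes. The shares to read these counts and those of the role lists against are the shares called over all genes, 24.7% in HG against LG, 40.7% in HGV against LGV, 46.1% in HGV against HG and 41.6% in LGV against LG, and with 2 to 22 members a role list differs from them by few genes. Of the divergent members 33 of 136 were called in HG against LG (30 higher) and 62 of 136 in HGV against LGV (57 higher), with medians of 0.40 and 0.59. Of the others with exon overlap 27 of 104 (22 higher) and 43 of 107 (32 higher) were called, with medians of 0.33 and 0.36, and of the remaining placed members 4 of 21 and 8 of 26. The divergent class includes members that also share exon bases. Of all 66 placed members without shared exon bases, 11 of 58 and 26 of 65 were called, with medians of 0.34 and 0.46. With VPA in high glucose 52 of 138 divergent members were called (24 higher) and 36 of 108 with exon overlap (13 higher), and in low glucose 39 of 133 (9 higher) and 22 of 103 (7 higher). The members with a -DT name had 19 higher and 0 lower of 41 in HGV against LGV. For comparison, of 12 transcripts named as intronic or overlapping (-IT or -OT) no more than 2 were called in any comparison.

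Grouped by what the sense gene is known for, antisense RNAs at genes of transcription factors outside the HOX clusters had 8 of 20 called in HG against LG, all higher (median log2 fold change 0.54), and 9 higher and 1 lower of 22 in HGV against LGV (median 0.60). With VPA 4 were higher and 6 lower of 21 in high glucose, or 47.6% called beside 46.1% of all genes, and 1 higher and 6 lower of 20 in low glucose. SOX9-AS1, at the gene of a factor of bile duct and progenitor cells, stood at 0.960 ± 0.205 CPM in LG, 1.77 ± 0.408 in HG, 1.11 ± 0.392 in LGV and 3.5 ± 0.459 in HGV, and MAFG-AS1, at the gene of a small Maf factor, at 3.15 ± 1.51, 5.05 ± 0.566, 2.69 ± 1.47 and 8.66 ± 1.63 CPM in the same order. TP73-AS1 fell with VPA by 0.30 ± 0.11 in high glucose (FDR 0.0408) and by 0.68 ± 0.13 in low glucose (FDR 0.000861). PAX8-AS1 was the only one of the 22 called lower in HGV than in LGV (0.165 ± 0.0116 against 0.499 ± 0.302 CPM, log2 fold change -1.58 ± 0.52, FDR 0.0204). It had enough reads for that test only through the LGV libraries, which lay far apart, so the FDR is no separate support.

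At genes of liver function and metabolism 5 of 10 members were called in HG against LG, 4 higher and 1 lower, and 3 of 10 in HGV against LGV, all higher, below the 40.7% of all genes called there. SLC16A1-AS1, at the gene of a monocarboxylate transporter, rose by 0.99 ± 0.22 in HG against LG (2.94 ± 0.482 to 5.80 ± 1.10 CPM, FDR 0.00322) and by 0.92 ± 0.22 in HGV against LGV (FDR 0.00304). DHRS4-AS1, at a gene of a carbonyl and retinal reductase, rose by 0.77 ± 0.20 (FDR 0.00862) and by 1.38 ± 0.25 (FDR 0.000294). ALDH1L1-AS2, at the gene of a folate enzyme, fell by 1.00 ± 0.24 in HG against LG (3.11 ± 0.489 to 1.52 ± 0.291 CPM, FDR 0.00613) and by 1.08 ± 0.30 in LGV against LG (FDR 0.009). With VPA 2 were higher and 3 lower in high glucose, and 3 of 10 were lower in low glucose. SLC2A1-AS1, at the gene of the glucose transporter GLUT1, rose with VPA in high glucose (0.606 ± 0.258 to 1.79 ± 0.483 CPM, log2 fold change 1.55 ± 0.34, FDR 0.00227) and was called in no other comparison.

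A list of 8 members at genes of the cell cycle and of DNA and RNA handling, taken by symbol and not complete, had 4 called in HG against LG, all higher, and 3 higher and 1 lower in HGV against LGV. TMPO-AS1, at the gene of a nuclear lamina protein, rose by 1.12 ± 0.27 (FDR 0.0051) and by 1.20 ± 0.27 (FDR 0.0019), and EIF3J-AS1, at a translation initiation factor gene, by 0.72 ± 0.18 in HG against LG (FDR 0.00706). With VPA 3 of the 8 were lower in high glucose (EIF3J-AS1, CDKN2B-AS1 and OIP5-AS1) and 1 in low glucose. The list for signalling and antigen presentation held 5 members, 2 of them at DLGAP1. In HGV against HG 3 were higher (HLA-F-AS1, IL10RB-AS1 and DLG5-AS1) and 2 lower (DLGAP1-AS1 and DLGAP1-AS2), and in LGV against LG 2 were higher and 1 lower. In HG against LG 1 was higher and 1 lower, and in HGV against LGV 1 was lower.

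IGF2-AS (chr11:2161731-2169896, plus strand) belongs to the imprinted IGF2 locus and shares 333 exon bases with IGF2, the gene of a fetal growth factor that HepG2 makes in quantity. It had 2.13, 1.92 and 2.55 CPM in LG, 4.37, 5.44 and 4.96 in HG, 1.77, 1.36 and 1.28 in LGV and 1.90, 2.19 and 2.35 in HGV, so that HG lay above the other groups. It rose by 1.18 ± 0.22 in HG against LG (FDR 0.000819) and fell by 1.20 ± 0.18 in HGV against HG (FDR 0.00015). Its log2 ratio to IGF2 stood at -10.41 ± 0.15 in LG, -10.49 ± 0.09 in HG, -10.37 ± 0.19 in LGV and -11.05 ± 0.30 in HGV. IGF2 rose by 1.12 ± 0.13 in HG against LG (FDR 8.84e-06) and fell in HGV against HG (log2 fold change -0.47 ± 0.15, FDR 0.0194). Reads of the shared exon bases can bear on both genes. WT1-AS, the other imprinted member, was called in no comparison (0.539 ± 0.164 CPM in LG, 0.704 ± 0.0675 in HG, 0.781 ± 0.135 in LGV and 0.858 ± 0.321 in HGV).

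Of 28 widely studied antisense RNAs looked for, 16 were among the members. OIP5-AS1 (also known as cyrano), which binds microRNAs and RNA-binding proteins, was the second most abundant of all in CPM after FAM211A-AS1. It had 131, 158 and 143 CPM in LG, 131, 111 and 115 in HG, 131, 151 and 114 in LGV and 97.1, 87.1 and 102 in HGV. Only the HGV libraries stood apart, below all others, with a fall of 0.49 ± 0.13 against LGV (FDR 0.0058) and of 0.32 ± 0.11 against HG (FDR 0.0278). ZEB1-AS1, at the gene of a factor of epithelial to mesenchymal transition, rose with glucose by 0.65 ± 0.21 (3.05 ± 0.576 to 4.72 ± 0.283 CPM, FDR 0.0316) and, under VPA, by 1.04 ± 0.18 (3.53 ± 0.504 to 7.36 ± 0.236 CPM, FDR 0.000248), and ZEB1 was called in neither. MCM3AP-AS1 rose by 0.65 ± 0.22 in HG against LG (FDR 0.0346) and TTN-AS1, of which 54.9% of the exon bases lie opposite exons of titin, by 0.80 ± 0.28 in LGV against LG (FDR 0.0341). MAPKAPK5-AS1 was lower in HGV than in LGV by 0.60 ± 0.18 (FDR 0.013). ST7-AS1 and KDM4A-AS1 were called in no comparison.

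Over the 4 pairwise comparisons 190 of the 282 members were called at least once, or 67.4%, beside 71.7% of all genes. Of the 245 that had enough reads to be tested in all 4, 77 were called in none, and 37 members lacked the reads in at least 1 comparison.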

How the data were processed

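Poly(A) RNA of 12 HepG2 libraries was sequenced as 50-nt single reads from directional libraries. Per the labels and the methods, the authors demultiplexed with bcl2fastq 2.17.1.14, aligned to GRCh37 with STAR and deposited raw read counts per gene from featureCounts with Ensembl models. The strand setting of the counting is not given in the sources used here. Groups were taken from the labels.

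Members were the symbols ending in -AS and an optional number. The members, gene lists and rules were chosen with earlier results of these data known. Counts were tested in edgeR 4.0.16 (R 4.3.3), with TMM factors, genes of a mean count of at least 10 in the libraries compared, and quasi-likelihood tests of each pair of groups and of the interaction over all 12 libraries. p-values were adjusted (Benjamini-Hochberg, FDR) over all genes tested, and 0.05 or less was called. SE is the log2 fold change divided by the root of F. The tests were tested on simulated data. Ratios of reads carry exact 95% intervals. Positions came from GENCODE v44 lifted to GRCh37, promoter windows from the same build, and the models may differ from those counted.

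Named were, per comparison, the 8 largest changes among called members with 1 CPM or more in the higher group and no overlap of groups, the 3 smallest p of the interaction, the 8 highest levels per kb, 6 pairs in each direction in HGV against HG, and a list of widely studied RNAs. Role groups were chosen by symbol of the sense gene, and their examples, LRRC3-AS1, LOXL1 and the low-count RNAs included, partly after their values were seen. Alternatives were DESeq2 size factors, library size only, no filter, DESeq2 1.42.0 (Wald test), 1 CPM in at least 3 libraries, a replicate block, 1 fit of all libraries, an FDR of 0.01 and leaving out each library. Replicate numbers were not used as pairs. Correlations of same-numbered deviations ran from -0.201 to 0.295, and 3 libraries per group are too few to decide whether the numbers pair. No libraries of a group were identical. Some named members are not reported here.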

Additional observations from a re-analysis of the deposited data

How the results depend on the processing

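Leaving out each library in turn gave 30 to 97 antisense RNAs called in HG against LG, 73 to 96 in HGV against HG, 44 to 90 in LGV against LG, 71 to 129 in HGV against LGV and 0 to 3 in the interaction. An FDR of 0.01 left 27, 64, 37 and 64 in the 4 pairwise comparisons. The interaction gave 4 with the Wald test of DESeq2 and 1 with the replicate block, which gave 61, 111, 78 and 121 in the pairwise comparisons. With 3 libraries per group these counts cannot decide whether the libraries were paired by number. Library size only moved the median over all genes to between 0.10 and 0.16 on the log2 scale. Pairs with both genes called numbered 22 in HGV against HG and 14 in LGV against LG at an FDR of 0.01, and 17 and 12 among pairs without shared exon bases. The causes were not tested, apart from the fewer pairs or stricter threshold that the last alternatives impose.

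Of 1039 values of named members under alternatives 917 kept direction and call, 115 lost the call (77 of them without 1 library, 22 at an FDR of 0.01), 7 of the interaction gained it and 0 reversed. Among the calls lost without at least 1 library were those for ATE1-AS1, JMJD1C-AS1, LMCD1-AS1, NAPA-AS1, OIP5-AS1, TMEM44-AS1 and JHDM1D-AS1 in HGV against HG, for HOXA-AS2, JHDM1D-AS1, MCM3AP-AS1, PRKCQ-AS1 and ZEB1-AS1 in HG against LG, for FAM211A-AS1 and MAPKAPK5-AS1 in HGV against LGV, and for HOXA-AS2 and TTN-AS1 in LGV against LG. Members with few reads, for which 3 reads are 0.0713 to 0.112 CPM, are limited by depth.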
